A study of Bos taurus with 60 samples.

Results

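These 100 genes of the bovine endometrium were chosen because their transcripts were more abundant in heifers given n-3 PUFA and then underfed than in any other dietary group. Endometrial tissue, the inner lining of the uterus, was taken from 60 nulliparous crossbred beef heifers at slaughter, 16 days after artificial insemination with semen of a single sire. The heifers had received a control concentrate diet with protected palmitic acid (CON) or the same type of diet with a fish oil based n-3 PUFA supplement (PUFA) for 30 days before insemination. After insemination they stayed on their high plane of nutrition (High) or were restricted to a low plane below maintenance (Low), with the lipid supplement continued. RNA was sequenced from 15 PUFA_Low, 17 PUFA_High, 14 CON_Low and 14 CON_High heifers, 1 library each. The submitters' design text states the opposite sizes for the n-3 PUFA groups, with 17 heifers in Low and 15 in High. The study's methods give the group sizes as the labels do, while its counts of pregnant and non-pregnant heifers add up to those of the design text, and every direction below follows the labels. The age of the animals is not given in the sources used here, and pregnant and non-pregnant heifers stand together in each group.

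The members came from the 14363 genes that passed an expression filter, out of 24616 in the table. For each gene the log2 CPM was computed, where CPM is the read count scaled to the size of its library after TMM correction, with a prior count of 2. A gene was eligible with a mean log2 CPM from 1 to below 6 over all heifers and with a maximum less than 3 above its median. Its Pearson r with a reference gene, ENSBTAG00000008471, also had to lie between -0.4 and 0.4. The reference gene itself ranged from 1.58 to 11.2 log2 CPM among heifers, and its name is not given in the table. These limits were met by 7928 genes, which were ranked by the PUFA_Low mean minus the highest of the other 3 group means, and the first 100 were taken. The difference used for ranking ran from 1.08 at rank 1 to 0.41 at ranks 98, 99 and 100, and the next 3 genes had 0.40, so the limit falls in a continuous series. Because the PUFA_Low level chose the members, their height in that group is a description, and counts of members past a limit in a comparison with PUFA_Low are given for size alone and test nothing.

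At this stage of the cycle the cow's endometrium is under progesterone, its glands secrete nutrients into the uterine lumen, and the elongating conceptus signals with interferon tau to prevent regression of the corpus luteum. Long-chain n-3 fatty acids are incorporated into membranes and compete with arachidonic acid as substrates for prostaglandin synthesis. Undernutrition around insemination is known to affect the growth hormone and IGF axis and circulating progesterone. The count table lists Ensembl identifiers without names, and the gene table used for names paired 0 of them with a symbol. The members are therefore given by their rank, no function is assigned to any of them, and the endometrium could not be checked against its marker genes.

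Library totals ranged from 9635801 to 13943813 counts with group medians between 11479873 and 11681204.5. A measure of the libraries is given here because it moves with the members. Its difference between diet groups was known from an earlier look at these data, so its p-values are not those of a fresh test. The 100 genes with the most counts in the whole series took 25.8% ± 3.31 (SD, n = 15) of all counts in PUFA_Low, below called the abundant-gene share, and 20.8% ± 1.91 (SD, n = 17) in PUFA_High (difference of 4.92 percentage points, two-sided permutation test with 100000 resamples, p = 2e-05, adjusted p = 4e-05 over 2 tests). The share was 21.8% ± 2.15 in CON_Low and 21.996% ± 2.99 in CON_High (SD, n = 14 each), which differed by less than the SD of either group (same permutation test, p = 0.858, adjusted p = 0.858). No member was among these 100 genes, which the rule's upper limit on mean log2 CPM fixed in advance. The least abundant of the 100 genes averaged 11432 counts per library. The members had mean counts from 23.4 to 798 per library with a median of 131, and together held 0.129% to 0.346% of the counts of a library.

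The highest-ranked member, ENSBTAG00000038368, was a gene of low abundance. In PUFA_Low its lowest, median and highest values were 2.39, 4.83 and 7.61 CPM. They were 1.04, 1.84 and 2.93 CPM in PUFA_High, 0.708, 1.70 and 4.22 CPM in CON_Low, and 0.867, 2.02 and 5.71 CPM in CON_High. All 15 PUFA_Low heifers lay above the median of the 45 other heifers and 4 of them above all 45, so the groups overlapped. These levels rest on few reads, with a median of 52 counts per library in PUFA_Low and 20 in PUFA_High. The second member, ENSBTAG00000030678, averaged 11.5 ± 5.81 CPM in PUFA_Low (SD, n = 15) and 5.00 ± 1.39 in PUFA_High (SD, n = 17). Its means in CON_Low and CON_High were 5.39 ± 1.87 and 5.93 ± 3.19 CPM (SD, n = 14 each). The fitted fold between PUFA_Low and PUFA_High was 2.51 for the first member and 2.28 for the second.

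The members ranked 3 to 6 were several times more abundant than these and showed the same arrangement. The member ranked 3 had a lowest, median and highest value of 30.8, 51.9 and 102.5 CPM in PUFA_Low, against 11.4, 26.5 and 39.1 CPM in PUFA_High, 20.3, 29.0 and 48.1 CPM in CON_Low, and 18.7, 26.6 and 53.2 CPM in CON_High. Of the 15 PUFA_Low heifers, 7 exceeded every heifer of the other groups, as many as for any member. The member ranked 4 averaged 70.6 ± 23.6 CPM in PUFA_Low, 33.1 ± 8.72 in PUFA_High, 36.9 ± 10.7 in CON_Low and 38.3 ± 16.6 in CON_High (SD), and 7 PUFA_Low heifers again lay above all others. For ranks 5 and 6 the PUFA_Low means were 62.4 ± 25.9 and 43.0 ± 18.5 CPM and the PUFA_High means 27.8 ± 6.70 and 20.5 ± 6.89 CPM. The highest CON_High heifer lay above the PUFA_Low mean in both cases, at 71.9 CPM for rank 5 and 57.0 CPM for rank 6. The members ranked 7 to 12 had PUFA_Low means between 4.52 and 14.8 CPM and folds over PUFA_High between 1.72 and 2.26.

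**Figure D1:**
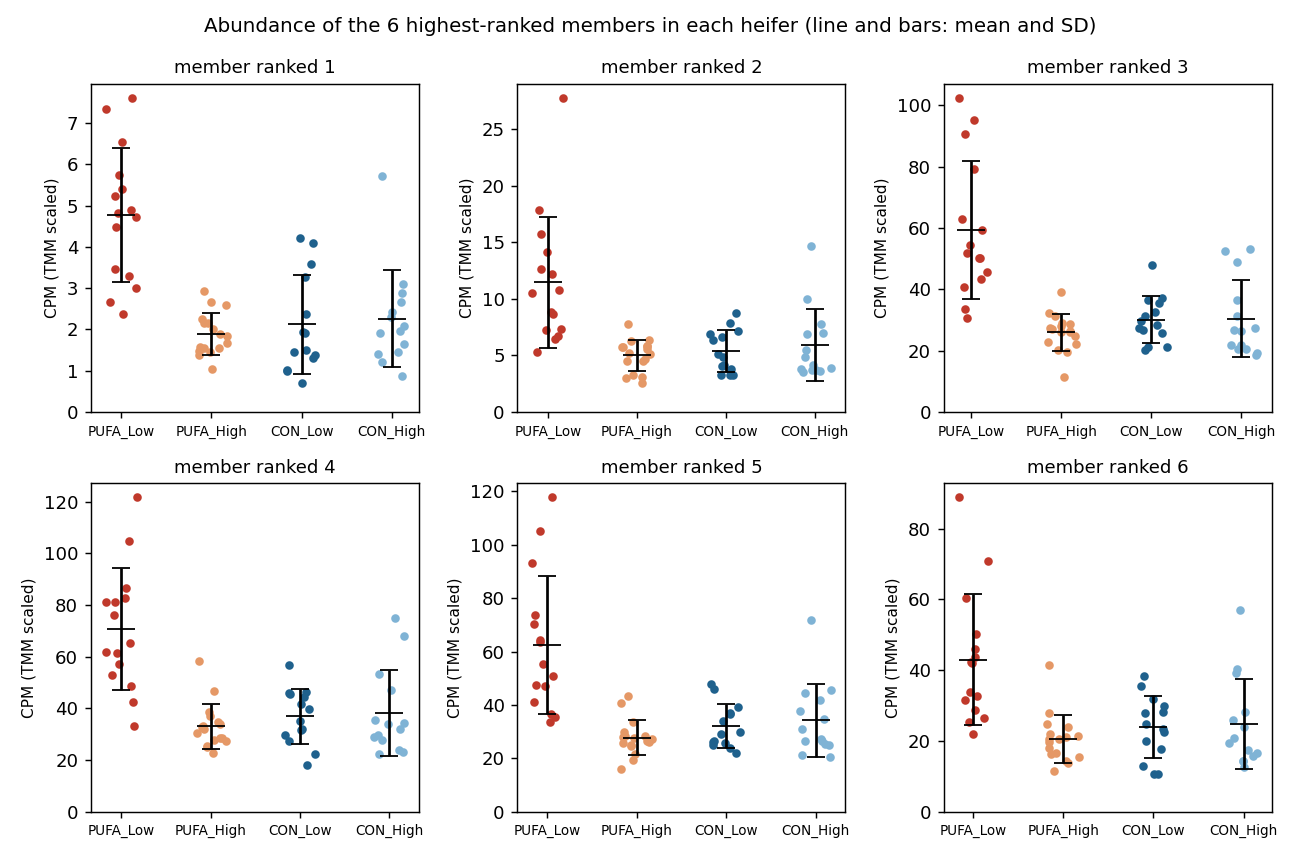
Abundance of the 6 highest-ranked members in CPM (vertical axes, starting at 0) in each of the 60 heifers (points), by dietary group, with the group mean and SD (black). PUFA_Low is highest on average in every panel, its points overlap those of the other groups, and CON_High replicate 11 stands above its group at ranks 2, 5 and 6.

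Over all 100 members, the fitted fold between PUFA_Low and PUFA_High ranged from 1.22 to 2.51 with a median of 1.62, and that between PUFA_Low and CON_Low from 1.11 to 2.23 with a median of 1.52. DEG were defined by an adjusted p-value under 0.10 in edgeR's quasi-likelihood test and a fold change above 1.5. These limits were met by 77 members as higher in PUFA_Low than in PUFA_High, where 2.44% of all genes tested were called higher and 5.61% called in either direction. Against CON_Low, 54 members met them, beside 1.52% of all genes called higher and 2.57% called in either direction. The rule used both comparisons, so these counts follow from the choice of the members, all of which had a positive log2 fold change in both comparisons, as had 46.1% and 48.4% of all genes tested. The highest of the other 3 group means was that of CON_High for 62 members, of CON_Low for 28 and of PUFA_High for 10. Those 3 means lay close together, with a median distance of 0.19 log2 units between the highest and the lowest. The members spanned the permitted levels, with 17 at a mean log2 CPM under 2, 43 from 2 to under 4 and 40 from 4 to under 6. The median difference used for ranking was 0.54, 0.49 and 0.49 log2 units in these classes.

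Diet was also compared among the other 3 groups. The rule used the highest of their means, which favours members in which these groups are low and alike, so a lack of calls here is partly set by the choice. Between CON_Low and CON_High no member was a DEG, no member had an unadjusted p-value under 0.05 (4.91% of all genes tested did), and no adjusted p-value was below 0.911 (quasi-likelihood test in edgeR, with no member called by DESeq2 either). The log2 fold changes of the members ranged from -0.52 to 0.39 with a median of -0.08 and a median standard error of 0.19, beside a median of -0.01 over all genes. They were above 0 for 22 members and for 46.2% of all genes tested. Between PUFA_High and CON_High no member was a DEG either (edgeR's quasi-likelihood test, smallest adjusted p = 0.434, and none with DESeq2), and 9 members had an unadjusted p-value under 0.05, beside 10.5% of all genes tested. Members were mostly lower in PUFA_High, 90 of the 100 having a log2 fold change below 0 (median -0.19, range -0.60 to 0.56), whereas 49.7% of all genes had one above 0. The percentage of genes called was 0 in both comparisons.

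CON_High replicate 11 bears on both comparisons. Without it the median log2 fold change of the members was 0.01 between CON_Low and CON_High and -0.10 between PUFA_High and CON_High, and still no member was called. In this heifer 78 of the 100 members exceeded the PUFA_Low mean, and for 9 members it had the highest value of all 60 heifers. No share of all genes is given beside these counts.

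Heifers were compared by the median over the 100 members of their log2 CPM minus the mean of the 45 heifers outside PUFA_Low. In PUFA_Low this median difference ranged from 0.15 to 1.23, with 0.54 in the middle heifer. The ranges were -0.47 to 0.40 in PUFA_High, -0.34 to 0.40 in CON_Low and -0.27 to 1.04 in CON_High. The upper end of CON_High was replicate 11. Of the PUFA_Low heifers, 2 lay above all 45 others, and 11 lay above the 44 others that remain without CON_High replicate 11. PUFA_Low replicates 7 and 10 had the largest differences, 1.23 and 1.22, and for 58 of the 100 members one of them was the heifer with the highest value in the series. Every PUFA_Low heifer had at least 66 members above the median of the 45 others, and 83 members were above that median in at least 13 of the 15 PUFA_Low heifers. The PUFA_Low mean chose the members, so these counts and that of the 58 highest values are partly set by the choice and describe size alone. No share of all genes is given beside them. With replicates 7 and 10 left out, 54 members were called against PUFA_High and 30 against CON_Low, and 78 of the 100 were chosen again by the rule. The share of all genes called in that fit is not given here, so the fall in members is not told apart from a fall in calls at large. For 18 members no PUFA_Low heifer exceeded all others, and for the remaining 82 between 1 and 7 did. Over all genes tested, 23.8% had at least 1 such heifer.

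**Figure D2:**
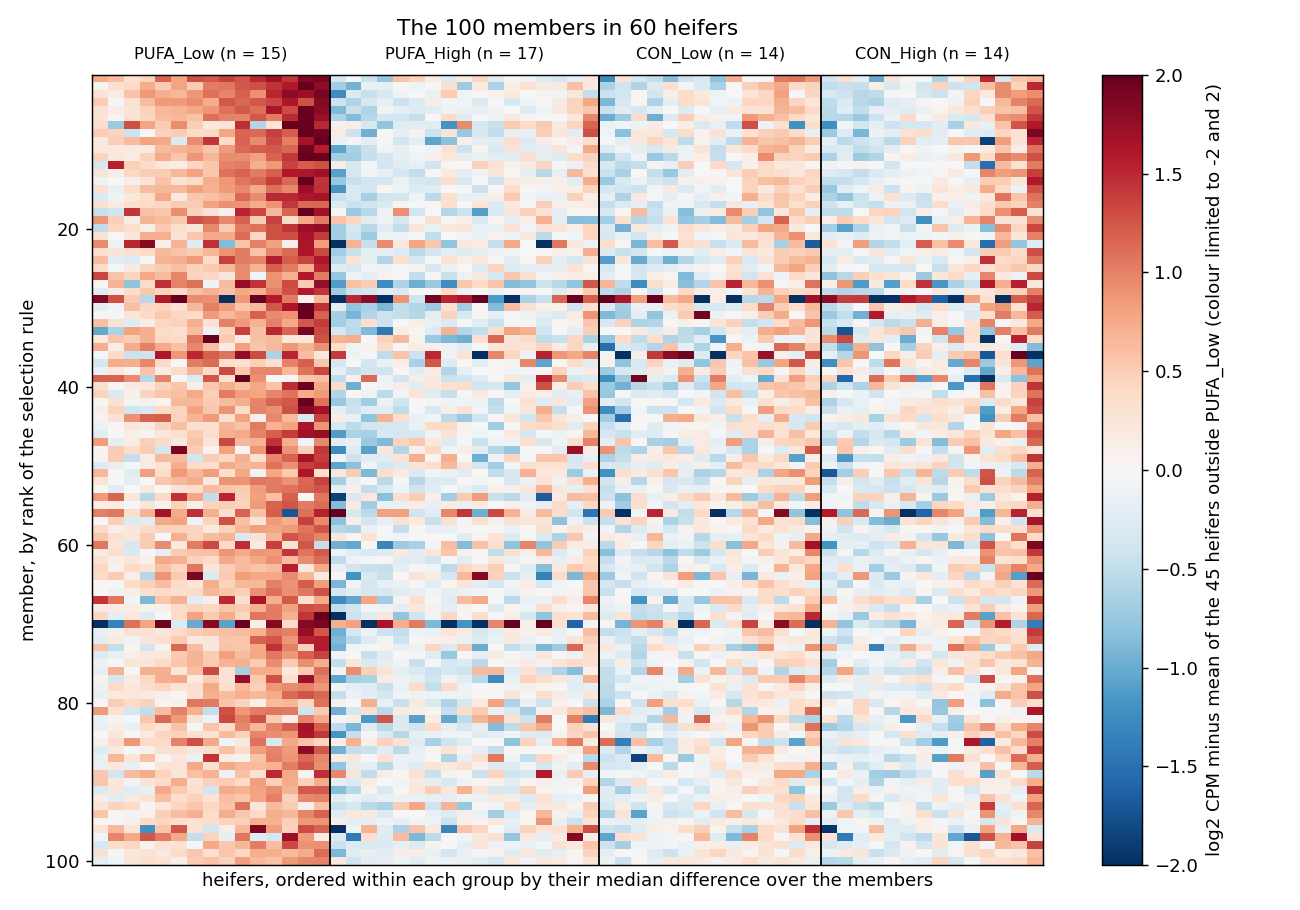
Log2 CPM of each member (rows, in order of rank) in each heifer (columns, by dietary group and, within it, by the median over members), minus the mean of the 45 heifers outside PUFA_Low, with colour limited to -2 and 2. Most rows darken together towards the right of PUFA_Low and in CON_High replicate 11 at the far right. The row at rank 70 alternates between high and low in every group, and those at ranks 29 and 36 in the 3 groups outside PUFA_Low. In PUFA_Low, rank 29 has its lowest value in replicate 5, at -4.07 before the colour limit.

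The library codes carry 1 of 6 prefixes whose meaning is not stated. Between 94 and 99 of the 100 members had a higher mean in PUFA_Low than in PUFA_High within each prefix, each with 2 or 3 heifers per group. The median difference within prefixes ranged from 0.34 to 0.96 log2 units. These are the heifers that chose the members, so the direction within prefixes follows from the choice and only the size is described.

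The members varied together among heifers of the same diet. Over the 28 control heifers, with the group means removed, the 4950 pairs of members had a median Pearson r of 0.35, with the 5% and 95% points at -0.16 and 0.77. The median over all pairs of the 7928 eligible genes was 0.00091, and r was above 0.5 for 32.7% of the member pairs and 7.39% of all pairs. The same measure had a median of 0.22 among the 17 PUFA_High heifers and 0.47 among the 15 PUFA_Low heifers. Without CON_High replicate 11 the median in control heifers was 0.26. These values are descriptions, since all pairs share the same libraries, and the median fell to 0.15 once the abundant-gene share had been removed by regression.

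**Figure D3:**
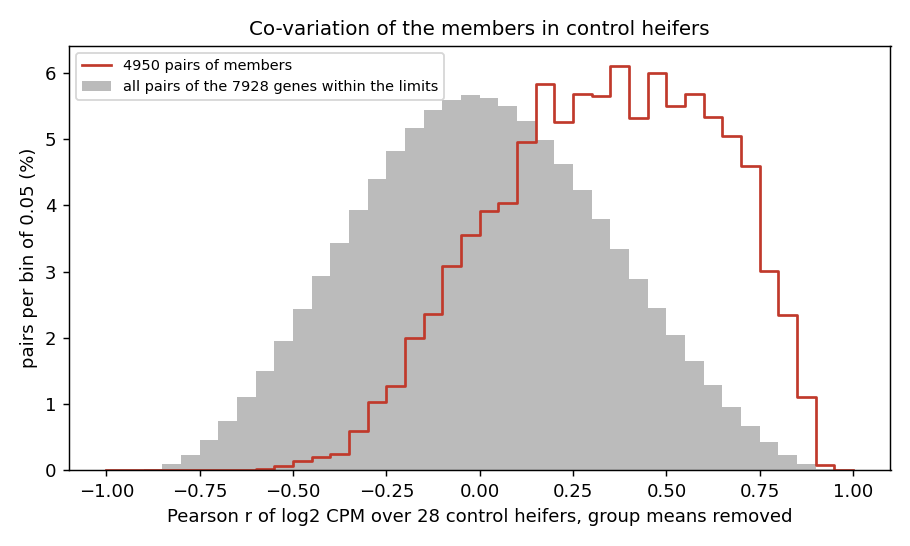
Distribution of Pearson r over the 28 control heifers, group means removed, for the 4950 pairs of members (line) and for all pairs of the 7928 eligible genes (bars), in percent of pairs per bin of 0.05. The member pairs are shifted to positive values, with a median of 0.35.

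The members at the centre of this co-variation were those ranked 5, 14, 61 and 17, whose median r with the other members in control heifers was 0.63, 0.63, 0.60 and 0.59. At the other end were the members ranked 22, 36, 29 and 70, with medians of -0.19, -0.08, -0.04 and -0.03. Of these, ranks 29, 36 and 70 differed among heifers of the same diet far more than the typical member. The member ranked 29 ranged from 0.0986 to 35.2 CPM in PUFA_Low, 0 to 21.6 in PUFA_High, 0.0760 to 26.5 in CON_Low and 0.0796 to 15.6 in CON_High. For the member ranked 36 the lowest and highest values were 25.7 and 136 CPM in PUFA_Low, 0.834 and 116 in PUFA_High, 0.921 and 152 in CON_Low, and 1.26 and 168 in CON_High. Each group outside PUFA_Low thus held at least 1 heifer with very few transcripts of this gene, while PUFA_Low held none. The member ranked 70 ranged from 0.908 to 19.2 CPM in PUFA_Low and from 0.312 to 27.4 CPM in PUFA_High. For ranks 22, 29 and 36, 10 of the 15 PUFA_Low heifers lay above the median of the 45 others, and for rank 70 it was 9. The fitted folds between PUFA_Low and PUFA_High of ranks 29, 36 and 70, from counts, were 1.22, 1.26 and 1.25. For ranks 29 and 36 PUFA_High was the highest other group. Their fitted log2 fold changes, 0.29 and 0.34, were smaller than the differences of log2 means that placed them in the list, 0.59 and 0.54. For rank 70 that group was CON_Low, and the fitted log2 fold change of 0.51 was larger than the difference of 0.46.

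Outside the group whose height chose them, the members rose with the abundant-gene share. Among the 45 heifers outside PUFA_Low, with the dietary groups as terms of the model, the slope on this share was positive for 94 members, beside 50.8% of all genes tested. It passed an adjusted p-value under 0.10 for 79 of the 100 (edgeR's quasi-likelihood test), each time with a positive slope, while 23.4% of all genes tested had such a positive slope and 45.6% a slope past the threshold in either direction. The median slope of the members was 0.096 log2 units per percentage point, with a range of -0.097 to 0.21, and that of all genes was 0.0014. Among the 7928 eligible genes 22.5% had a positive slope past the threshold, and 27.1% a negative one. The members ranked 4, 5, 23, 28 and 13 had the smallest p-values, with slopes of 0.16, 0.14, 0.12, 0.13 and 0.16 (edgeR's quasi-likelihood test, adjusted p from 2.87e-10 to 8.21e-09, standard errors of 0.014 to 0.018). A negative slope was found for 6 members, none past the threshold. The largest negative slope was that of rank 22, -0.097 with a standard error of 0.056 (edgeR, adjusted p = 0.172), followed by ranks 70, 56, 39 and 89 with slopes from -0.091 to -0.013.

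**Figure D4:**
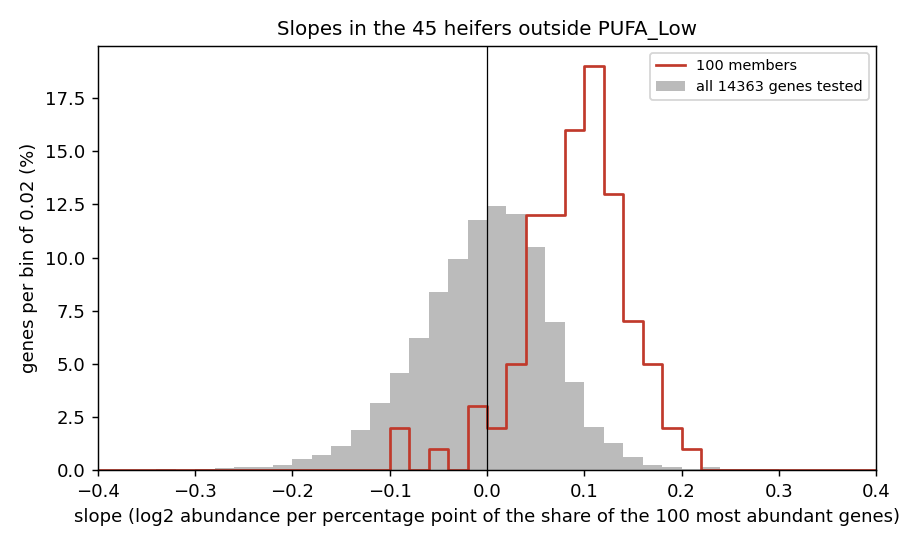
Slope of log2 abundance on the abundant-gene share, per percentage point, in the 45 heifers outside PUFA_Low, for the 100 members (line) and for all 14363 genes tested (bars), in percent of genes per bin of 0.02, with the axis limited to -0.4 and 0.4. The members centre on 0.096 and all genes near 0.

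The 12 highest-ranked members all had positive slopes past the threshold, from 0.073 at rank 12 to 0.18 at rank 6. Without CON_High replicate 11, 66 members passed the threshold, and ranks 9 and 12 no longer passed it (slopes of 0.044 and 0.049, edgeR, adjusted p = 0.396 and 0.161). In the 28 control heifers alone 75 members passed. In the 17 PUFA_High heifers alone 19 members passed, all with positive slopes, and the median slope was 0.078. Slopes taken within each library code prefix, without regard to diet and over 7 or 8 heifers, had medians from 0.054 to 0.13, and 77 to 90 of the members were above 0. The shares of all genes in these refits and prefixes are not given here, so the counts are not set against a background.

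The slope was called more often among the more abundant members, for 9 of 17 with a mean log2 CPM under 2, 32 of 43 from 2 to under 4 and 38 of 40 from 4 to under 6. The share of all genes with a called slope is not given by level, so whether this rise is particular to the members was not tested. The 21 members without a called slope had a median count of 56.4 per library and a median standard error of 0.041, against 179 and 0.022 for the 79 with one, so members without a call had fewer reads. Their slopes were also smaller, with a median of 0.037 against 0.11, which follows in part from a split by called slope. The median r of these members with other members in control heifers was 0.078 against 0.47. Control heifers were among those used to call the slope, so this contrast in r is not independent of the split. Both contrasts are given for size alone. The difference used for ranking was the same in both sets, with a median of 0.50 log2 units.

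The slope was also fitted within PUFA_Low. The rule ranked genes by the mean of these heifers, and its limits on range and r used the values of single heifers. That mean was raised by replicates 7 and 10, whose shares were 30.0% and 30.6%. The slopes within PUFA_Low are therefore not independent of the choice of members. Slopes within and outside PUFA_Low were not tested against each other. Over the 15 heifers, in which the share ran from 21.4% to 30.6%, the slope was above 0 for 92 members, beside 46.1% of all genes tested. It passed the threshold for 69, all positive (edgeR's quasi-likelihood test), whereas 13.4% of all genes tested had such a positive slope and 24.8% a slope past the threshold in either direction. The median slope was 0.11 log2 units per percentage point. For 66 members the slope was positive and past the threshold both within and outside PUFA_Low. The percentage of all genes with both is not given here, so this count is not set against a background. Without PUFA_Low replicates 7 and 10, 57 members passed. The share of all genes that passed in that fit is not given here.

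**Figure D5:**
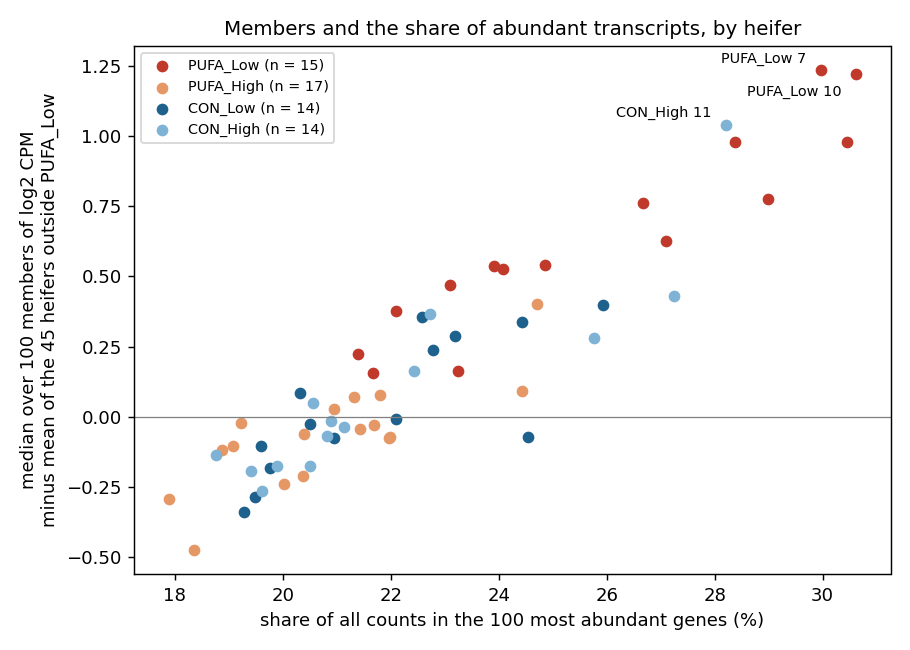
Each point is 1 heifer, with its abundant-gene share (horizontal, %) and the median over the 100 members of its log2 CPM minus the mean of the 45 heifers outside PUFA_Low (vertical), coloured by dietary group. Heifers with a larger share tended to have higher members, with exceptions such as CON_Low replicate 4 (share 24.5%, median difference -0.07), and CON_High replicate 11, at a share of 28.2% and a median difference of 1.04, lies among the PUFA_Low heifers with the largest shares.

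When the share was entered as a covariate of the model of the 4 dietary groups, the median log2 fold change of the members between PUFA_Low and PUFA_High was 0.23, against 0.70 without it, and that between PUFA_Low and CON_Low was 0.21, against 0.61. No member was then a DEG in either comparison. The percentage of all genes called in that fit is not given here, so the loss of calls is not set against a background. The abundant-gene share is computed from the same libraries and differs between the groups, so the diets and the share cannot be told apart in these fits. In RNA of whole tissue, moreover, more cells of a type and more transcripts per cell give the same reading.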

How the data were processed

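Per the submitters' processing notes, the authors used TopHat2 2.0.9 for alignment of single-end reads (build UMD3.1) and HTSeq 0.5.4p5 for counting. They deposited the raw counts of 60 heifers, without normalization, in 1 table of 24616 genes. The strand setting of the counting is not given in the sources used here. Groups were taken from the library titles. Because the design text reverses the sizes of PUFA_Low and PUFA_High, fits were repeated with these labels swapped.

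Filtering (filterByExpr), TMM scaling and quasi-likelihood fits of the deposited counts were run with edgeR 4.0.16 under R 4.3.3, with 1 coefficient per group over all heifers or with the share of counts as a slope. p-values were adjusted over all 14363 genes by the Benjamini-Hochberg method. The members, lists and tests were chosen with earlier results of these data known. The adjusted p-value limit of 0.10 is wider than that of the study's methods. CPM values use TMM scaled library sizes. Models were tested on simulated data. Of 423 pairs of libraries within groups, none agreed within sampling noise (smallest chi-square per gene 14.8). The alternatives were DESeq2 1.42.0, other scale factors, filters, thresholds, blocks, covariates, and leaving out each heifer.

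Members to be named were ranks 1 to 12, those next to the limit, and the extremes in slope and co-variation. They are given by rank, because 0 identifiers could be paired with the 37063 genes of the name table (ARS-UCD2.0). The planned gene lists, cell type markers, gene properties and sequences were therefore not analysed here.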

Additional observations from a re-analysis of the deposited data

How the results depend on the processing

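Of the 100 members, 98 were chosen again under RLE factors, 97 under upper-quartile factors, 97 with a prior count of 0.5, 95 without the limit on r, and between 84 (without PUFA_Low replicate 8) and 100 without any 1 heifer, but 62 when group medians replaced means. The 77 members called between PUFA_Low and PUFA_High became 64 to 82 without any 1 heifer, 50 at an adjusted p-value under 0.001 and 0 with the share of abundant genes as a covariate. With PUFA_Low and PUFA_High labels swapped, the 77 were called in the opposite direction, which the swap fixes by construction. Members called between the supplements on the low plane, 54, numbered 44 to 68 without any 1 heifer, 30 without PUFA_Low replicates 7 and 10, 10 at an adjusted p-value under 0.001, and 0 both with the share as a covariate and with swapped labels. The swap also gave 30 members called between n-3 PUFA and control heifers on the high plane, where the labelled groups gave 0. That swapped contrast sets the heifers that chose the members against CON_High, so this count too follows from the choice. Stricter limits lower these counts by construction, and counts in comparisons with PUFA_Low follow from the choice of members. The shares of all genes called under these alternatives are not given here. For the plane effect in control heifers no alternative called a member.

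Members with a slope past the threshold outside PUFA_Low numbered 66 to 81 without any 1 heifer, the lowest without CON_High replicate 11, and 19 in the 17 PUFA_High heifers alone, a fit with fewer heifers, in which the slope at rank 1 was -0.022 (edgeR, adjusted p = 0.845). Within PUFA_Low they numbered 62 to 71. The median r of member pairs in control heifers, 0.35, was 0.31 by Spearman and 0.15 with the share removed. The replicate numbers do not pair the heifers, with a mean correlation of deviations of -0.053 between heifers of the same number and 0.0046 otherwise. With the replicate block, 66 members were called between PUFA_Low and PUFA_High, 50 between PUFA_Low and CON_Low and 0 in the other contrasts. No share of all genes is given beside the counts of this paragraph. The fits of the PUFA_High heifers alone, without PUFA_Low replicates 7 and 10, and of co-variation without CON_High replicate 11 were chosen after seeing the data, as were, for the slope, upper-quartile factors, the prefix and the total count (80, 76 and 73 members).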
